A study of Mus musculus with 6 samples.

Results

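The heavy chain constant genes of the immunoglobulin locus, together with the gene of the J chain, were examined in germinal center (GC) B cells and naive B cells from mouse Peyer's patches. The genes were chosen by name as Ighm, Ighd, Ighg3, Ighg1, Ighg2b, Ighg2c, Ighe, Igha and Igj (also Jchain). Of these 9 genes, 7 could be matched to an identifier among the 39179 of the expression table, and Ighd and Igha were not analysed here. A row with no symbol in the tables used, ENSMUSG00000095079, stood as high in GC B cells as the highest matched gene (1801 ± 96.8 TPM, beside 65.6 ± 10.6 TPM in naive B cells, SD, n = 3 each). No table used here pairs this row with a gene name, and whether it is Igha, Ighd or neither was not tested. The row was higher in GC B cells, whereas Ighm, which shares a primary transcript with Ighd, was lower there. Sums and shares over the constant genes are given without the row, and the main ones also with it. All mice were untreated wild-type C57BL/6 females of 12 weeks. GC B cells were sorted from ileum Peyer's patches as Fas+ GL7+ B cells and naive (resting) B cells as Fas- GL7- B cells, and each of the 3 samples per population was RNA from a pool of several mice. Expression was measured by RNA-Seq and was expressed here as TPM, a share of all transcripts in the pool that is corrected for transcript length and lets genes be compared with each other.

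A B cell carries its constant genes in a row behind the rearranged variable exon. Naive B cells express the nearest ones, Ighm and Ighd, from a single primary transcript. In class switch recombination the DNA is broken in the switch regions before the constant genes, and the intervening stretch is deleted so that a gene farther along (an IgG, IgE or IgA gene) is joined to the same variable exon. Peyer's patches, lymphoid tissue in the gut wall, hold chronic germinal centers driven by the gut flora and are known for switching to IgA. The J chain is a small protein that links IgM into pentamers and IgA into dimers for transport across epithelia. A germline transcript that runs through an unswitched constant gene ahead of recombination carries the same constant exons, so gene values of this kind do not separate it from the messenger RNA of a switched heavy chain, nor the membrane from the secreted form.

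The matched constant genes lie on chromosome 12 of the mouse genome (GRCm38.p6, RefSeq), in the order Ighm (chr12:113418826-113422730), Ighg3 (chr12:113357442-113361232), Ighg1 (chr12:113326541-113330523), Ighg2b (chr12:113304314-113307933), Ighg2c (chr12:113287389-113288932) and Ighe (chr12:113269263-113273248), and Igj lies on chromosome 5 (chr5:88519809-88527897). The identifiers are ENSMUSG00000076617 for Ighm, ENSMUSG00000076615 for Ighg3, ENSMUSG00000076614 for Ighg1, ENSMUSG00000076613 for Ighg2b, ENSMUSG00000076612 for Ighg2c, ENSMUSG00000087642 for Ighe and ENSMUSG00000067149 for Igj. The 4 IgG genes are close relatives, and the hinge exon, which joins the antigen-binding arms to the stem of the antibody, is where they differ most plainly. The hinge exons are shown because the comparison turns on reads being assigned to the right subclass. They are printed 5′ to 3′ from the GENCODE vM1 transcripts of NCBIM37, with the in-frame cysteine codons, which form the disulfide bridges between the heavy chains, in capitals.
Ighg3: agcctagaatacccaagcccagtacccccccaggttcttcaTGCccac
Ighg1: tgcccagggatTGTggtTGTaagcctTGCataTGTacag
Ighg2b: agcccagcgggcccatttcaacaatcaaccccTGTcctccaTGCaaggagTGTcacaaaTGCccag
Ighg2c: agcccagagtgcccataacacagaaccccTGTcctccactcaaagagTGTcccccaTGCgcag
The hinge exon counted 48 bases and 1 cysteine codon in Ighg3, 39 bases and 4 in Ighg1, 66 bases and 4 in Ighg2b, and 63 bases and 3 in Ighg2c. For each of the 6 constant genes, 1 annotated coding transcript was compared with those of the others in windows of 50 bases. Ighg2b and Ighg2c shared 56 windows, or 5.83% of those of Ighg2b and 4.82% of those of Ighg2c. No other pair of the 6 shared a window of that length. The Ighg2c transcript had 6 exons and those of Ighg1, Ighg2b and Ighg3 had 4. Exons 5 and 6 of Ighg2c thus had no counterpart in the comparison. Over the stretches compared, the division of reads between Ighg2b and Ighg2c is less certain than that between the other genes. Sharing outside these stretches, or in the annotation used to quantify the reads, was not tested.

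Among the matched constant genes, GC B cells carried mainly Ighg2b and Ighg1 transcripts, and naive B cells mainly Ighm. All 7 matched genes passed the filter of at least 1 TPM in at least 3 pools, and all 7 passed the test between the populations (limma on log2(TPM + 1), Benjamini-Hochberg adjusted p under 0.05 over 12785 genes), where 65.6% of all genes tested also passed. In GC B cells 5 were higher (Ighg1, Ighg2b, Ighg2c, Ighe and Igj), against 35.5% of all genes, and 2 were lower (Ighm and Ighg3), against 30.1% of all genes. Ighe passed the filter only through the GC pools, and Ighg1 only with them, since 2 of its naive pools were under 1 TPM, so a higher GC level was built into their passing. The lowest pool of the higher population exceeded the highest pool of the lower one in all 7, as it did in 70.7% of all genes. The median log2 fold change of the 7 genes was 3.65, beside a median of 0.03 over all genes tested. These counts alone are thus set against a comparison in which most genes differed, and the sizes of the changes are given gene by gene. In sorted bulk cells, a change in the share of cells that express a gene and a change in RNA per cell cannot be told apart.

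**Figure D1:**
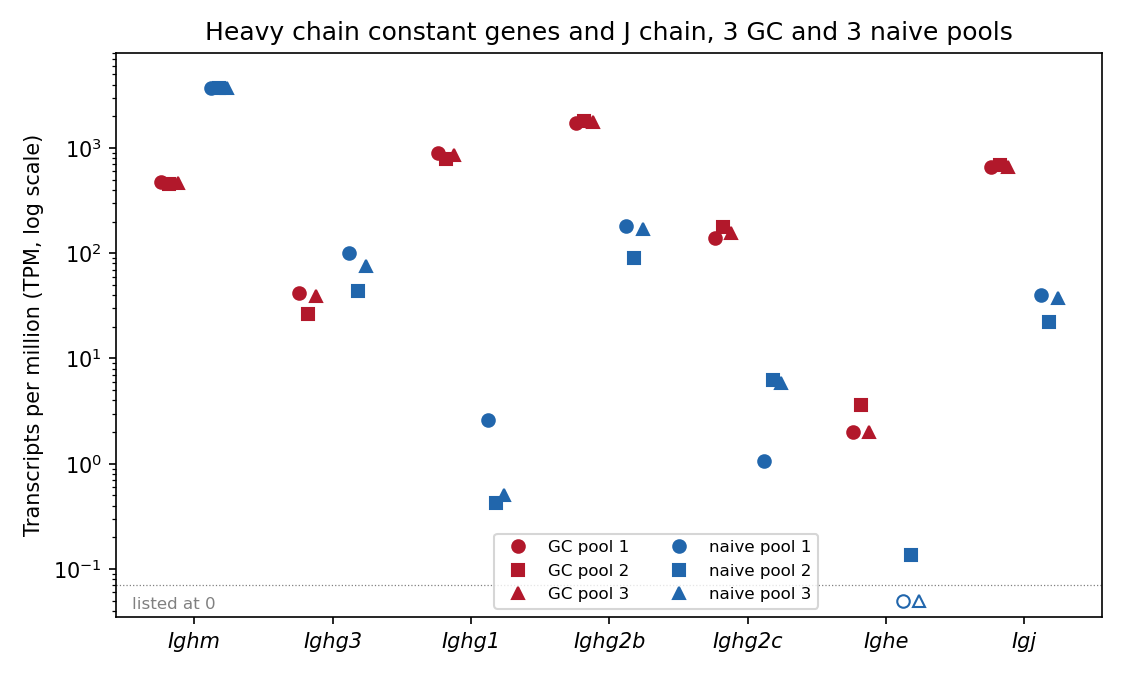
TPM on a log scale of the 7 matched genes in each of the 3 GC pools (red) and 3 naive pools (blue), with marker shapes for the pool number and open symbols for values listed at 0. The populations do not overlap in any of the 7 genes, and the naive pools spread more than the GC pools in the IgG genes and Igj.

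Ighm, the constant gene of IgM and the first to be expressed, was the highest of these genes in naive B cells. Its levels were 3727, 3728 and 3745 TPM in naive B cells and 478, 454 and 464 TPM in GC B cells. The pools of each population lay close together and far from the other population. Ighm was lower in GC B cells, with a log2 fold change of -3.00 (SE 0.0342, limma adjusted p = 7.58e-08), and its mean level was 8.02 times as high in naive as in GC B cells on the ratio of TPM (naive 3733 ± 9.84, GC 465 ± 12.0 TPM, SD, n = 3 each).

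Ighg3, the IgG gene nearest to Ighm, was the other gene that was lower in GC B cells. The naive pools had 101, 43.4 and 75.2 TPM, and the GC pools 41.6, 26.7 and 39.0 TPM. The naive pools were spread widely, and the lowest of them, naive pool 2, lay just above the highest GC pool. The log2 fold change was -0.96 (SE 0.322, limma adjusted p = 0.0373). This call rested on the full set of pools. Without GC pool 1, 2 or 3 the adjusted p became 0.0525, 0.105 and 0.0653, without naive pool 1 or 3 it became 0.0934 and 0.103, and only without naive pool 2 did it stay under the threshold, at 0.00558.

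Ighg1, which encodes the IgG subclass typical of responses with IL-4, had the widest difference of the group. On log2(TPM + 1), no gene among the 12785 tested had a log2 fold change of larger size. GC pools stood at 891, 781 and 850 TPM and naive pools at 2.58, 0.424 and 0.504 TPM. Naive pool 1 was several-fold above the other naive pools, yet far below every GC pool. The log2 fold change was 8.74 (SE 0.349, limma adjusted p = 2.79e-06). This value and its rank depend on the added 1 TPM because the naive levels are so low. By the ratio of mean TPM, GC over naive, Ighg1 stood at 719 and the GC marker Gcet2 higher, at 1143.

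Ighg2b encodes an IgG subclass that is associated with TGF-beta and with gut responses in mice. It was the highest of the matched genes in GC B cells, at 1746, 1821 and 1769 TPM, and stood at 181, 90.5 and 169 TPM in naive B cells. It was therefore also well represented in the naive pools, where naive pool 2 was the lowest. The log2 fold change was 3.65 (SE 0.253, limma adjusted p = 3.3e-05).

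Ighg2c is the C57BL/6 counterpart of the IgG2a gene of other strains and is typical of responses with interferon-gamma. Its levels were 140, 177 and 154 TPM in GC pools and 1.05, 6.19 and 5.87 TPM in naive pools. Here naive pool 1, not naive pool 2, was the lowest. The log2 fold change was 5.08 (SE 0.48, limma adjusted p = 0.00014), and without naive pool 1, the pool with the lowest level, it was 4.48.

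Ighe, the gene of IgE, was at the edge of detection. It was listed at 2.01, 3.61 and 2.01 TPM in GC pools and at 0, 0.137 and 0 TPM in naive pools. All GC pools were above all naive pools, and with 2 naive pools listed at 0 no ratio is given. The fitted log2 difference was 1.73 on log2(TPM + 1) (SE 0.209, limma adjusted p = 0.000438), a size that the added 1 TPM sets and that is no bound.

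Igj encodes the J chain and is widely used as a sign of antibody-secreting cells. Its levels were 660, 693 and 656 TPM in GC pools and 40.3, 22.1 and 37.4 TPM in naive pools. The GC pools were nearly level with each other, and naive pool 2 was the lowest of all. The log2 fold change was 4.33 (SE 0.213, limma adjusted p = 7.13e-06).

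**Figure D2:**
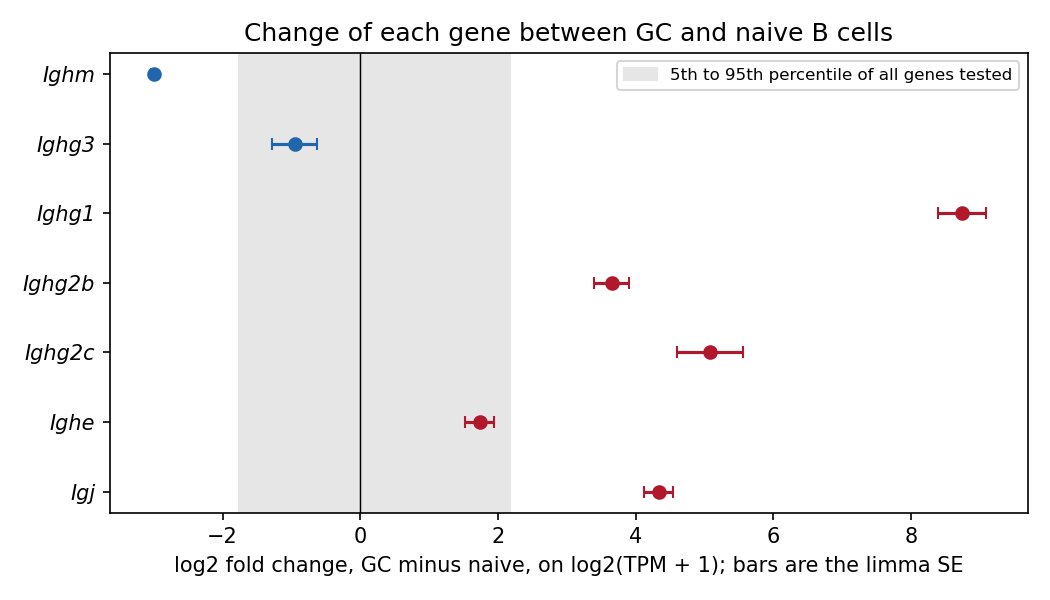
Log2 fold change (GC minus naive, on log2(TPM + 1)) of the 7 genes with limma standard errors as bars, over a grey band from the 5th to the 95th percentile of all 12785 genes tested (-1.76 to 2.17). Ighg1, Ighg2c, Igj and Ighg2b lie above the band, Ighm lies below it, and Ighe and Ighg3 lie within it.

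Ranked by level, the GC pools gave the order Ighg2b, Ighg1, Igj, Ighm, Ighg2c, Ighg3 and Ighe, and all 3 pools gave this order with no overlap in range between neighbours. Naive B cells gave another order, Ighm, Ighg2b, Ighg3, Igj, Ighg2c, Ighg1 and Ighe. Among the naive neighbours, the ranges of Ighg2b and Ighg3 overlapped, although Ighg2b was the higher in each of the 3 pools, and the ranges of Ighg2c and Ighg1 overlapped, with Ighg2c higher in 2 of 3 pools. Ighg1 thus stood at the second place in GC B cells and next to last in naive B cells.

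To describe the isotype make-up within a pool, the level of each gene was divided by the summed TPM of the 6 matched constant genes. These shares leave out Igha and Ighd, so they are shares of the matched genes and not of all heavy chain transcripts. With ENSMUSG00000095079 added to the sum, the mean GC shares became 35.0% for Ighg2b, 16.6% for Ighg1 and 9.16% for Ighm, the row itself would hold 35.4%, and the naive share of Ighm became 92.8%. With 3 pools against 3, the exact two-sided permutation test cannot go below p = 0.1. Ighm made up 14.5%, 13.9% and 14.2% of the sum in GC pools and 92.9%, 96.4% and 93.7% in naive pools, a difference of -80.1 percentage points (exact permutation p = 0.1). Ighg2b made up 54.2% ± 1.45 in GC and 3.69% ± 1.18 in naive B cells (SD, n = 3 each, exact permutation p = 0.1). For Ighg1 the share was 25.6% ± 1.57 in GC pools and 0.0643%, 0.0110% and 0.0126% in naive pools 1, 2 and 3, and for Ighg2c it was 4.79% ± 0.605 and 0.111% ± 0.0737 (n = 3 each, exact permutation p = 0.1 for both). The highest of these naive Ighg1 shares was that of naive pool 1. The pools of the populations did not overlap in any of these shares. The share of Ighe was 0.0610%, 0.111% and 0.0612% in GC pools and 0%, 0.00350% and 0% in naive pools (exact permutation p = 0.1). Ighg3 was the exception, with 1.09% ± 0.238 in GC and 1.84% ± 0.698 in naive B cells, ranges that overlapped (n = 3 each, exact permutation p = 0.3), although with ENSMUSG00000095079 in the sum they no longer did (exact permutation p = 0.1).

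**Figure D3:**
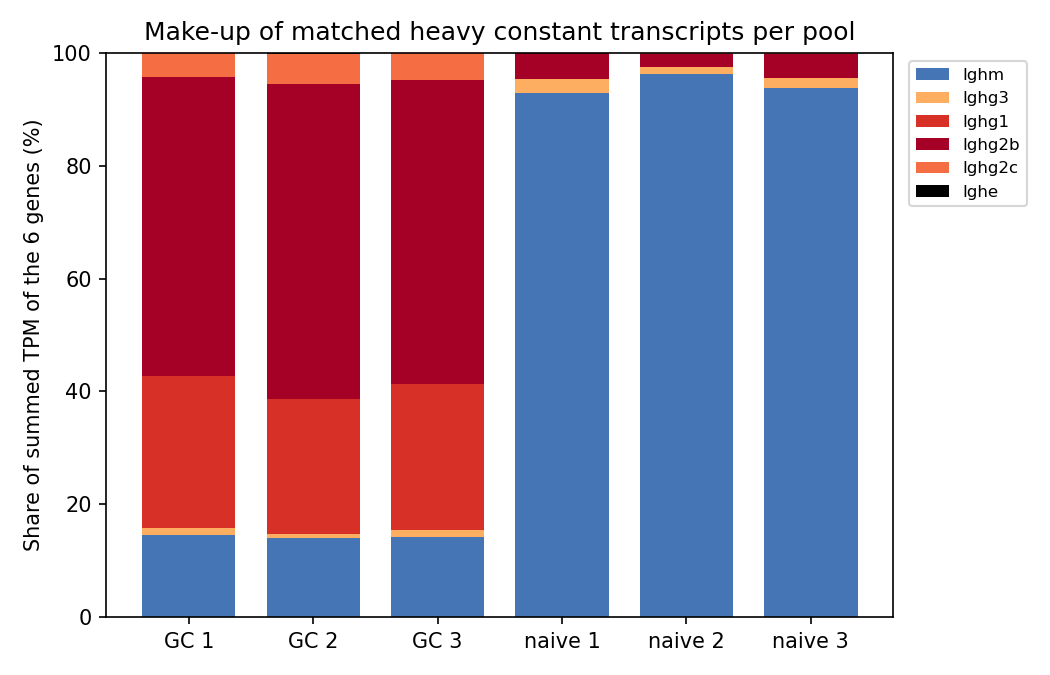
Stacked share in percent of the 6 matched constant genes in their summed TPM, one bar per pool. Ighg2b and Ighg1 fill most of the 3 GC bars, and Ighm fills between 92.9% and 96.4% of the 3 naive bars, while Ighe is too small to be seen.

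The 5 switched genes (Ighg3, Ighg1, Ighg2b, Ighg2c and Ighe) summed to 2821, 2809 and 2815 TPM in GC pools and to 285, 141 and 251 TPM in naive pools. As a share of the 6 constant genes this was 85.5%, 86.1% and 85.8% in GC pools and 7.11%, 3.64% and 6.27% in naive pools. The GC pools were almost identical in this share, and naive pool 2 had the lowest. The sum over all 6 constant genes changed far less than its parts, with 3298, 3263 and 3279 TPM in GC pools and 4012, 3869 and 3995 TPM in naive pools, so that every GC pool was below every naive pool. With ENSMUSG00000095079 added, the order turned, with 5013, 5169 and 5061 TPM in GC pools and 4077, 3924 and 4072 TPM in naive pools. Relative to the mean of Cd79a and Cd79b, the signaling partners of the membrane immunoglobulin, the 6 matched genes were also higher in GC B cells, with 2.94 ± 0.0450 in GC and 1.96 ± 0.0469 in naive B cells (SD, n = 3 each). Cd79a and Cd79b were themselves lower in GC B cells. The sums do not cover all heavy chain RNA, and their direction depended on the reference and on the rows summed. They are descriptions and were not tested.

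Within the 5 switched genes alone, Ighg2b held 61.9%, 64.8% and 62.9% of switched TPM in GC pools and 63.3%, 64.4% and 67.5% in naive pools, ranges that overlapped. Most of the remainder of these 5 genes was Ighg1 in GC B cells and Ighg3 in naive B cells. Ighg1 held 29.9% ± 1.92 of switched TPM in GC and 0.469% ± 0.380 in naive B cells, whereas Ighg3 held 1.27% ± 0.280 in GC and 32.1% ± 2.90 in naive B cells (SD, n = 3 each). Ighg2c held 4.95%, 6.31% and 5.48% in GC pools and 0.369%, 4.40% and 2.34% in naive pools. Counting ENSMUSG00000095079 as switched would put Ighg2b at 38.5%, 38.6% and 38.5% in GC pools and at 51.6%, 46.2% and 51.7% in naive pools. These ranges no longer overlapped. The mean share of Ighg1 in GC B cells would be 18.2% and that of Ighg3 in naive B cells 24.7%. In GC B cells the row itself stood above Ighg1, at 1801 ± 96.8 TPM beside 841 ± 55.8 TPM (SD, n = 3 each). In TPM, Ighg2b was 1.79, 2.09 and 2.25 times as high as Ighg3 in the naive pools, a narrow range for genes that were both lowest in naive pool 2. In the GC pools the same ratio was 41.9, 68.1 and 45.4. Igj amounted to 14.1, 15.7 and 14.9 transcripts per 100 switched transcripts in the naive pools and to 23.4, 24.7 and 23.3 in the GC pools. With ENSMUSG00000095079 counted as switched, these became 11.5, 11.3 and 11.4 in the naive pools and 14.5, 14.7 and 14.3 in the GC pools. Igj thus followed the low value of naive pool 2 in the switched genes, and the GC pools all had a higher ratio of Igj to them than the naive pools.

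The naive level of each gene was also set against its GC level, next to genes that mark GC B cells. Gcet2, S1pr2, Rgs13 and Mybl1, which are GC markers, were in the naive pools between 0.0596% and 0.677% of their mean GC levels. Ighg1 was similarly low, at 0.307%, 0.0505% and 0.0599% of its GC level in naive pools 1, 2 and 3. Ighg2b (10.2%, 5.09% and 9.51%) and Igj (6.02%, 3.30% and 5.59%) were well above it, and Ighg3 was higher in naive than in GC B cells (282%, 121% and 210%). Ighg2c was in the low range in naive pool 1 (0.671%) and above it in naive pools 2 and 3 (3.94% and 3.74%). Fas and Bcl6, which naive B cells also express to some degree, stood at 2.82% and 19.7% of their mean GC levels.

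**Figure D4:**
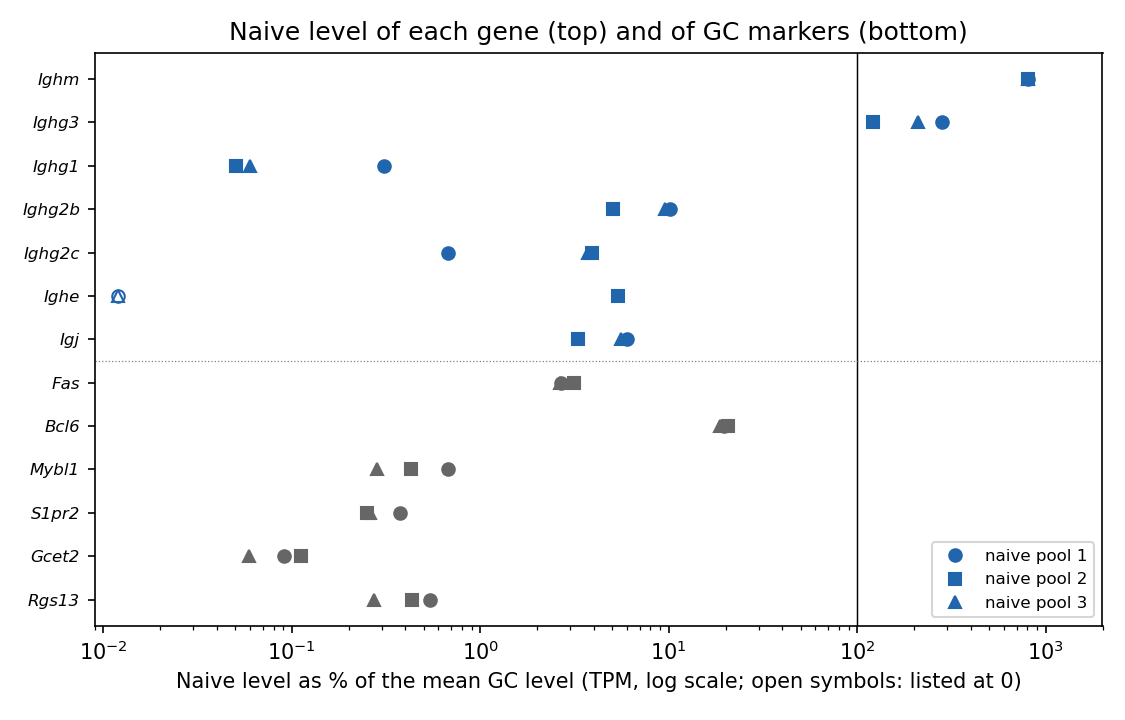
Level in each naive pool as a percentage of the mean GC level, on a log scale, for the 7 matched genes (top, blue) and 6 GC markers (bottom, grey), with a line at 100%. Ighg1 lies among the lowest GC markers, Ighg2b and Igj lie between 3.30% and 10.2%, and Ighg3 and Ighm lie beyond the line.

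Genes around the constant genes were grouped by their role in making or reading the heavy chain. Light chains pair with every heavy chain isotype, and their constant genes were lower in GC B cells. Igkc, the kappa constant gene, had a log2 fold change of -0.22 (SE 0.0447, limma adjusted p = 0.00483) and Iglc2, a lambda constant gene, one of -1.57 (SE 0.0362, limma adjusted p = 3.5e-07). Cd79a and Cd79b fell by 1.12 and 0.54 on the log2 scale, which made 4 of 4 tested genes of this list lower (median -0.83), beside 30.1% of all genes. The other lambda constant genes listed, Iglc1 and Iglc3, had no matched row. The ratio of Igkc and Iglc2 together to the 6 heavy constant genes was 2.79, 2.82 and 2.75 in GC pools and 2.81, 2.82 and 2.97 in naive pools. The ranges of this ratio overlapped, but with ENSMUSG00000095079 in the heavy chain sum the ratio was 1.84, 1.78 and 1.78 in GC pools and 2.76, 2.78 and 2.92 in naive pools.

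Of 25 genes of class switch recombination, 16 were higher in GC B cells, 1 was lower and 8 were not called (median log2 fold change 0.67), beside 35.5% higher and 30.1% lower among all genes. The histone gene H2afx, whose product marks DNA breaks, rose by 3.68, the exonuclease gene Exo1 by 2.83, the uracil glycosylase gene Ung by 2.48 and the mismatch repair gene Msh6 by 2.02 on the log2 scale. In the end-joining pathway that seals switch junctions, Lig4 rose by 1.96 and its partner Xrcc4 fell by 0.42 on the log2 scale.

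The genes listed as switch signals for a given isotype mostly went the other way. Among 12 tested genes on the IgA list, 3 were higher and 8 lower (median -0.56), beside the same 35.5% and 30.1% of all genes. The TGF-beta receptor gene Tgfbr1 rose by 1.30 and the transcription factor subunit gene Cbfb by 0.86, while the log2 fold change was -1.23 for Tgfbr2, -2.55 for Smad3 and -1.70 for Runx3. Among 13 tested genes on the IgG and IgE list, 2 were higher and 11 lower (median -0.40), beside 35.5% and 30.1% of all genes. The higher ones were Bcl6 (2.32) and Id2 (1.75), both known to restrain switching to IgE, and the lower ones included the interferon-gamma receptor gene Ifngr2 (-2.67), the IL-4 receptor gene Il4ra (-1.45) and its signal transducer Stat6 (-1.18), all as log2 fold changes. Ighg1 and Ighg2c were thus higher in the population in which these receptor genes were lower, and no link between them was tested.

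Of the genes that process the heavy chain transcript, 4 were tested. Zfp318, needed for IgD to be made from the shared Ighm and Ighd transcript, stood at 1.85, 1.99 and 2.34 TPM in GC pools and at 94.7, 93.3 and 80.7 TPM in naive pools (log2 fold change -4.89, SE 0.102, limma adjusted p = 2.81e-07). Ell2 and Cstf2, which favor the secreted form of the heavy chain, rose by 1.55 and 0.94 on the log2 scale, and Hnrnpf rose by 0.26. The populations did not overlap in any of these 4 genes, as in 70.7% of all genes.

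Since Igj is often read as a plasma cell gene, genes of antibody secretion were listed beside it. Of 19 tested, 6 were higher in GC B cells, 10 were lower and 3 were not called (median -0.20), beside 35.5% higher and 30.1% lower among all genes. Derl3 and Mzb1, whose products act in the endoplasmic reticulum, and Prdm1, the gene of the plasma cell regulator Blimp-1, rose by 1.96, 1.40 and 1.62 on the log2 scale. The log2 fold change was -1.76 for Irf4, -2.44 for Fkbp11, -0.75 for Sdc1 (the plasma cell surface protein CD138) and -0.20 for Xbp1. The list thus moved in both directions, and Igj rose more than any of these genes. The summed level of the 8 plasma cell markers was 653 to 700 TPM in GC and 362 to 390 TPM in naive pools. Of these markers 4 were higher and 3 lower among 7 tested, beside the same 35.5% and 30.1% of all genes. Among these markers Mzb1 stood at 370 to 418 TPM in GC and 138 to 161 TPM in naive pools, Slamf7 at 113 to 117 and 18.0 to 18.9 TPM, and Derl3 at 30.9 to 35.2 and 6.99 to 9.48 TPM. The defining surface markers were low, with Tnfrsf17 at no more than 0.193 TPM in any pool and Sdc1 at no more than 3.66 TPM, while Prdm1 stood at 4.69 to 5.22 TPM in GC and at 0.862 to 1.07 TPM in naive pools. The part of plasma cells in the Igj level was not tested.

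Receptors that bind antibody constant regions were lower in GC B cells in 6 of 7 genes tested (median -1.82), beside 30.1% of all genes. Fcgrt, the neonatal Fc receptor for IgG, had a log2 fold change of -4.30, and Fcer2a, the low-affinity IgE receptor CD23, one of -2.78. For Fcmr, the IgM receptor, it was -2.36, and for Fcgr2b, the inhibitory IgG receptor, -1.03. Trim21 fell the least of the 6, with a log2 fold change of -0.51. Pigr, the receptor that carries J chain-linked IgA and IgM across epithelia and that epithelial cells express, was not called (-0.73, SE 0.388, limma adjusted p = 0.141). Pigr stood at 3.27, 10.6 and 4.49 TPM in GC pools and at 13.1, 8.90 and 8.02 TPM in naive pools, with overlap between the populations.

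**Figure D5:**
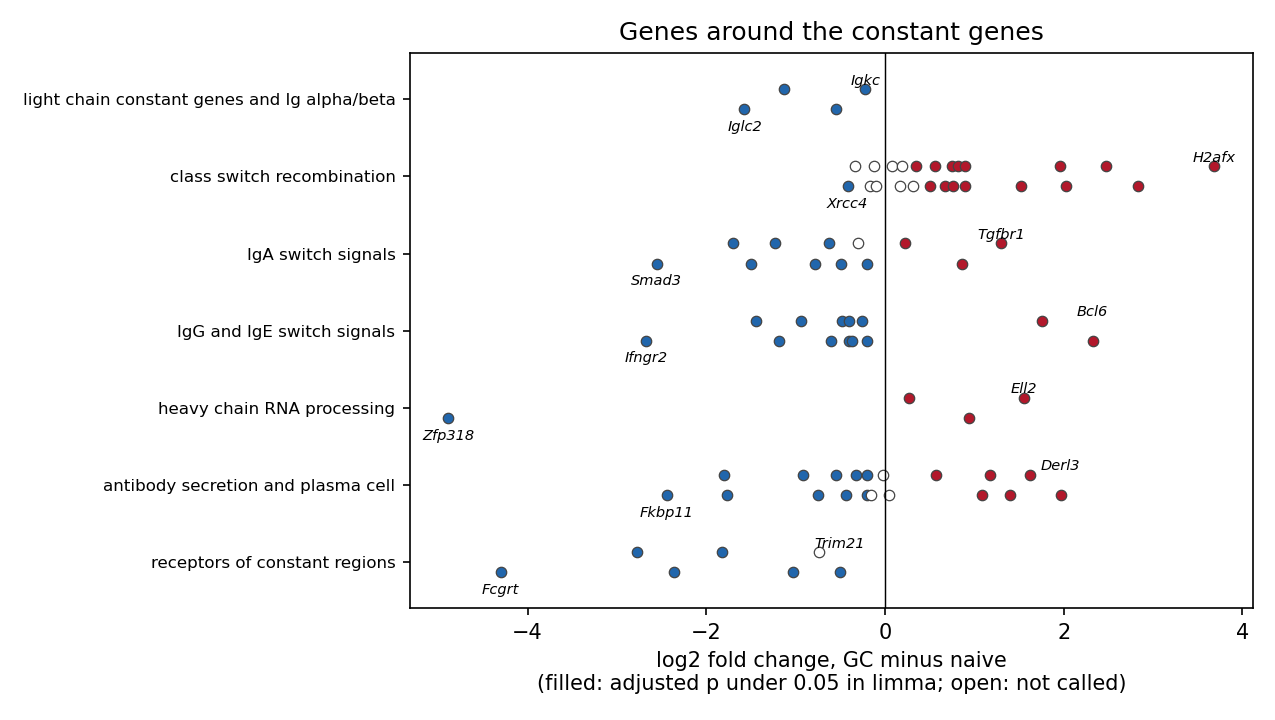
Log2 fold change (GC minus naive) of tested genes in 7 lists around the constant genes, filled where limma called the gene and open where it did not, with the lowest and highest plotted gene of each list named. Most class switch recombination genes lie to the right of 0, and most genes of the switch signals and all 7 receptors lie to the left.

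The genes with the profile most like Ighg1 over the 6 pools included H1fx and Gcet2. Their log2 profiles, centered on their means, differed from that of Ighg1 by a root mean square of 0.61 and 0.63. For Igj they included Foxm1 and Gnb4, with 0.13 and 0.16. Foxm1, known from dividing cells, also had its lowest level in naive pool 2 (2.94 TPM, beside 4.21 and 4.48 TPM in naive pools 1 and 3). With 6 pools in 2 populations, likeness of this kind mainly reflects the difference between the populations.

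The sort labels were checked on markers. All 7 GC markers were higher in GC pools and all 6 naive markers were higher in naive pools, with Fas at 108 to 119 TPM in GC and 3.03 to 3.59 TPM in naive pools. Among T cell markers, Lck stood at 127 to 136 TPM in GC and 64.1 to 66.9 TPM in naive pools, and the others, among them Cd3e and Cd4, at no more than 1.83 TPM in any pool. Summed epithelial markers stood at 55.4 to 124 and 139 to 182 TPM, myeloid markers at 0.836 to 2.45 and 4.22 to 7.07 TPM, and stromal markers at no more than 0.594 TPM. The part of other cells in the values of the constant genes was not tested. The depth, estimated from the steps between low values, was about 10000000 to 11000000 reads in GC pools and about 9800000 to 16100000 reads in naive pools, with naive pool 2 the deepest.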

How the data were processed

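RNA-Seq values of 3 GC and 3 naive pools were used. The authors deposited 1 table of FPKM per gene and pool: reads were demultiplexed with CASAVA 1.8 and checked with FastQC, adapters were removed with cutadapt 1.9 and reads were quantified with RSEM 1.2.25 on the mouse transcriptome (NCBIm38, v75), so reads shared by related genes were divided by a model. The submitters' processing notes also name edgeR without a role.

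FPKM was rescaled to TPM in each pool. Identifiers were matched by symbol or RefSeq synonym, and Ighg2b and Ighg3 by their distance from Ighg1 (-22590 and 30709 bases between gene ends), which was identical in NCBIM37 and GRCm38.p6. A symbol was found for 33398 of 39179 identifiers, and for 149 of 153 listed genes. The test between populations was limma 3.58.1 (R 4.3.3, eBayes with trend) on log2(TPM + 1), with the filter and the adjusted p threshold given above, a minimum of 1 TPM in 3 or more pools and 0.05. Fold changes on this scale understate those of low genes. Shares were compared with two-sided exact permutation tests (scipy 1.17.1, Python 3.11.15). The files hold no counts. In steps of low FPKM only 72.1% to 76.6% of values fell within 0.2 of a whole read, so no count test was run and depth is approximate.

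The genes and lists were chosen with earlier results of these data known. The text names the listed genes, from each gene list the called genes with the largest and smallest log2 fold change and others of that list, Fas as a check of the sort, and, of the 3 genes nearest in profile to Ighg1 and to Igj, those that are reported. Some items are not reported here. Alternatives changed the pseudocount, the filter, the scaling, the denominator of shares, the replicate block and each pool, and, chosen after the data were seen, added the row without a symbol to the sums. The limma p-values set the difference between the populations against the spread between pools. The permutation p-values place the observed difference among those of all regroupings of the pools. The fit was also run on simulated data in which 200 of 12785 genes were changed by 1 on the log2 scale. It recovered 84% of them, and 5.62% of its calls were false. Far fewer genes were changed there than were called in the data.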

Additional observations from a re-analysis of the deposited data

How the results depend on the processing

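Ighg3 lost its call without the filter on low values (log2 fold change -0.96, limma adjusted p = 0.0682) and without any single pool other than naive pool 2, with fold changes from -1.29 to -0.69 as pools were left out. The higher share of Ighg2b in GC B cells turned to -1.85 percentage points when only switched genes were summed, because leaving out Ighm removes most of the naive sum. Summed constant gene TPM was lower in GC B cells (log2 ratio -0.27) and became higher relative to Cd79a and Cd79b (0.58) or with ENSMUSG00000095079 added (0.34), which was chosen after seeing the data. With this row counted as switched, the switched share differed by 83.6 percentage points, beside 80.1 without it. Under quantile normalization 4 class switch genes were lower in GC B cells, beside 1 in the main analysis. The median log2 fold change of all genes tested was -0.055 under that setting, beside 0.031 in the main analysis. Of all calls, 47.9% were higher in GC B cells, beside 54.1%. The cause of the changed count was not tested. Other list counts shifted less. With the replicate block, 9 IgG and IgE signal genes were lower, beside 11, and 15 class switch genes were higher, beside 16. Ighe was not tested under the filter of 5 TPM in at least 3 pools. For the matched genes, shares and sums, the other alternatives gave the same direction and call. Some did so by construction, since rescaling a pool cannot change a share and the block cannot change a difference.

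With the replicate number as a block, 7960 genes were called, beside 8392 without it, no call of the 7 genes changed, and the adjusted p of Ighg3 was 0.00311. Same-numbered pools deviated together only weakly (correlations of 0.083, 0.0225 and 0.0456). Each GC pool correlated best with the naive pool of its number, while naive pool 2 correlated best with GC pool 3 (0.0298). Correlations this weak cannot decide whether same-numbered pools came from the same mice. The pools were treated as unpaired in the main test. Leaving out single pools gave 7656 to 8101 called genes. The ratio of Ighd to Ighm and its alternatives were not run because Ighd was not matched. Shares exclude Igha and Ighd, naive Ighg1 and Ighe lie near the lower end of what this depth measures, and 3 pools against 3 limit every exact test to p = 0.1.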

Other observations

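The tables used here give no symbol for 5781 identifiers of the expression table. Of these, 28 were called higher in GC B cells by at least 4-fold, and the one with the highest GC level, ENSMUSG00000095079, was picked after its values were seen. It stood at 1715, 1906 and 1782 TPM in GC pools and at 64.7, 55.5 and 76.6 TPM in naive pools (log2 fold change 4.77, SE 0.116, limma adjusted p = 3.89e-07). Its GC level was as high as that of Ighg2b, at 1801 ± 96.8 TPM beside 1779 ± 38.1 TPM (SD, n = 3 each), and naive pool 2 was its lowest pool, as for Ighg2b, Ighg3 and Igj. The direction of this row was opposite to that of Ighm, which naive B cells express from the same primary transcript as Ighd. Mean Ighm levels were 3733 TPM (naive) and 465 TPM (GC). Zfp318, needed for IgD to be made from that transcript, had means of 89.5 TPM (naive) and 2.06 TPM (GC). The row is given by its identifier only. Whether it is a heavy chain constant gene was not tested, and it entered sums and shares only where that is stated.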
